A study of Mus musculus with 6 samples.

Results

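The insulin-like growth factor (IGF) family was followed through 9 genes of the deposited table: the ligand gene Igf1, the receptor genes Igf1r and Igf2r, and the binding protein genes Igfbp2, Igfbp3, Igfbp4, Igfbp5, Igfbp6 and Igfbp7. They were taken by gene symbol from 26969 genes, and all 9 had 1 row each and passed the filter on low counts. The libraries came from wild-type mouse chondrocytes, the matrix-making cells of cartilage, sequenced as poly(A) RNA in 2 groups of 3. The study set chondrocytes beside chondrocytes that had been given mitochondria, and its title names osteocytes as the source of these. The labels contradict each other on which group is which: libraries described as mAC_Mito have vehicle as title and treatment, and libraries described as mAC have mitochondria. Groups are named here by the description, as in the columns of the table, and no difference is read as an effect of mitochondria. Nothing in the labels gives an age, a culture time or a dose, and no label calls the replicates separate cultures or animals. The p-values below therefore rest on library-to-library spread alone, and this spread could be technical.

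IGF1 is a secreted peptide that drives growth of cartilage and matrix synthesis by chondrocytes. It signals through the receptor tyrosine kinase IGF1R, which acts by way of insulin receptor substrates on the PI3K-AKT and RAS-MAPK pathways. IGF2R, also the cation-independent mannose 6-phosphate receptor, takes up IGF2 for breakdown in lysosomes. Secreted binding proteins hold IGFs in the tissue and in blood and are cut by proteases that set the ligand free.

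Igf1r and Igf2r were both highest in libraries mAC_Mito 2 and 3, and the sequences before their transcript starts are shown beside that of Igf1, which was not. Each run is the 250 bases before the RefSeq start, 5′ to 3′ on the strand of the gene (build GRCm38.p6), with capitals marking GC boxes (GGGCGG or its reverse complement CCGCCC). Windows were found for 9 of 9 members.
Igf1r: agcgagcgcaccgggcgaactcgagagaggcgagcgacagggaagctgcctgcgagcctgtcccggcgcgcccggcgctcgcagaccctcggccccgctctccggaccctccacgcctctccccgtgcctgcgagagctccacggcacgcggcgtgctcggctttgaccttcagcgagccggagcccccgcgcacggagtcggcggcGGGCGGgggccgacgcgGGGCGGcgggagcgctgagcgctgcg
Igf2r: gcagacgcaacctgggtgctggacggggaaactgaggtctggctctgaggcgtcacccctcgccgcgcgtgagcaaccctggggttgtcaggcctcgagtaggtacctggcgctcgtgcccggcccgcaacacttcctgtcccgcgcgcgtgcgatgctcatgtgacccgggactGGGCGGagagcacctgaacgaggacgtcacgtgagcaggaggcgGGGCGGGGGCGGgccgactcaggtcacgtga
Igf1: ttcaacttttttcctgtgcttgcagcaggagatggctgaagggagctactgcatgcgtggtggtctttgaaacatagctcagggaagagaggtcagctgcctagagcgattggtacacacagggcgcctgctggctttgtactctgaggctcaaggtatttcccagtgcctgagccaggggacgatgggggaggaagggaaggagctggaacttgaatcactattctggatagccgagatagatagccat
The Igf1r run lies at chr7:67952007-67952256 on the plus strand, with its start 570 bases upstream of the gene start in the table. The Igf2r run lies at chr17:12769707-12769956 on the minus strand with its start 42 bases upstream. The Igf1 run lies at chr10:87860861-87861110 on the plus strand, and its start is 2846 bases inside the gene of the table, so it is not the sequence before the outermost start, as the receptor runs are. The receptor windows were rich in G and C, at 77.6% for Igf1r with 42 CpG dinucleotides and 69.2% for Igf2r with 27, where the median over 32851 RefSeq windows of this length was 52.4% and 6. The Igf1 window held 52.8% G and C and 5 CpG dinucleotides. Igf1r had 2 GC boxes, Igf2r had 3, of which a pair is adjacent, and Igf1 had 0. Over the family 4 of 10 windows held a GC box and 2 held TATAAA or TTTATA (Igfbp4 and Igfbp6), where 32.7% and 12.4% of all windows held these motifs. GC boxes were not particular to the receptors. Igfbp7, the steadiest member over the libraries, had 4, with 74.0% G and C and 26 CpG dinucleotides, and an Igfbp2 window had 3. Any link between these windows and the library pattern was not tested. These are matches of letters, and no binding was measured.

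Levels of different genes are compared as FPKM, a read count scaled for gene length and library depth, which the authors computed. The family spanned a wide range, with Igfbp7 at the top and Igf1r at the bottom. Means over the 6 libraries were 165 ± 6.22 FPKM (SD, n = 6) for Igfbp7 and 127 ± 14.9 for Igfbp4. The next were Igfbp2 at 34.8 ± 7.96, Igfbp6 at 27.96 ± 5.35 and Igf2r at 21.4 ± 7.45 FPKM. The lower end was Igfbp5 at 7.73 ± 1.28, Igfbp3 at 6.74 ± 0.312, Igf1 at 5.46 ± 0.463 and Igf1r at 2.66 ± 0.718 FPKM. The ranges over libraries overlapped between Igfbp2 and Igfbp6, between Igfbp6 and Igf2r, and between Igfbp5 and Igfbp3. Within libraries Igfbp6 was above Igf2r in 6 of 6, and Igfbp2 above Igfbp6 and Igfbp5 above Igfbp3 in 5 of 6. All other neighbours had separate ranges. FPKM depends on the gene model used for length, so the order of genes with many annotated exons, and ratios between genes, carry that uncertainty.

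Igfbp7 and Igfbp3 were the steadiest members, with a coefficient of variation over the 6 libraries of 3.77% and 4.63%. Igf2r (34.8%), Igf1r (27.0%), Igfbp2 (22.9%) and Igfbp6 (19.1%) were the most variable. Counts per library were 1406 to 1622 for Igfbp3, 1475 to 2520 for Igfbp6 and 2626 to 4234 for Igf1r, from totals of 59116068 to 68378213.

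**Figure D1:**
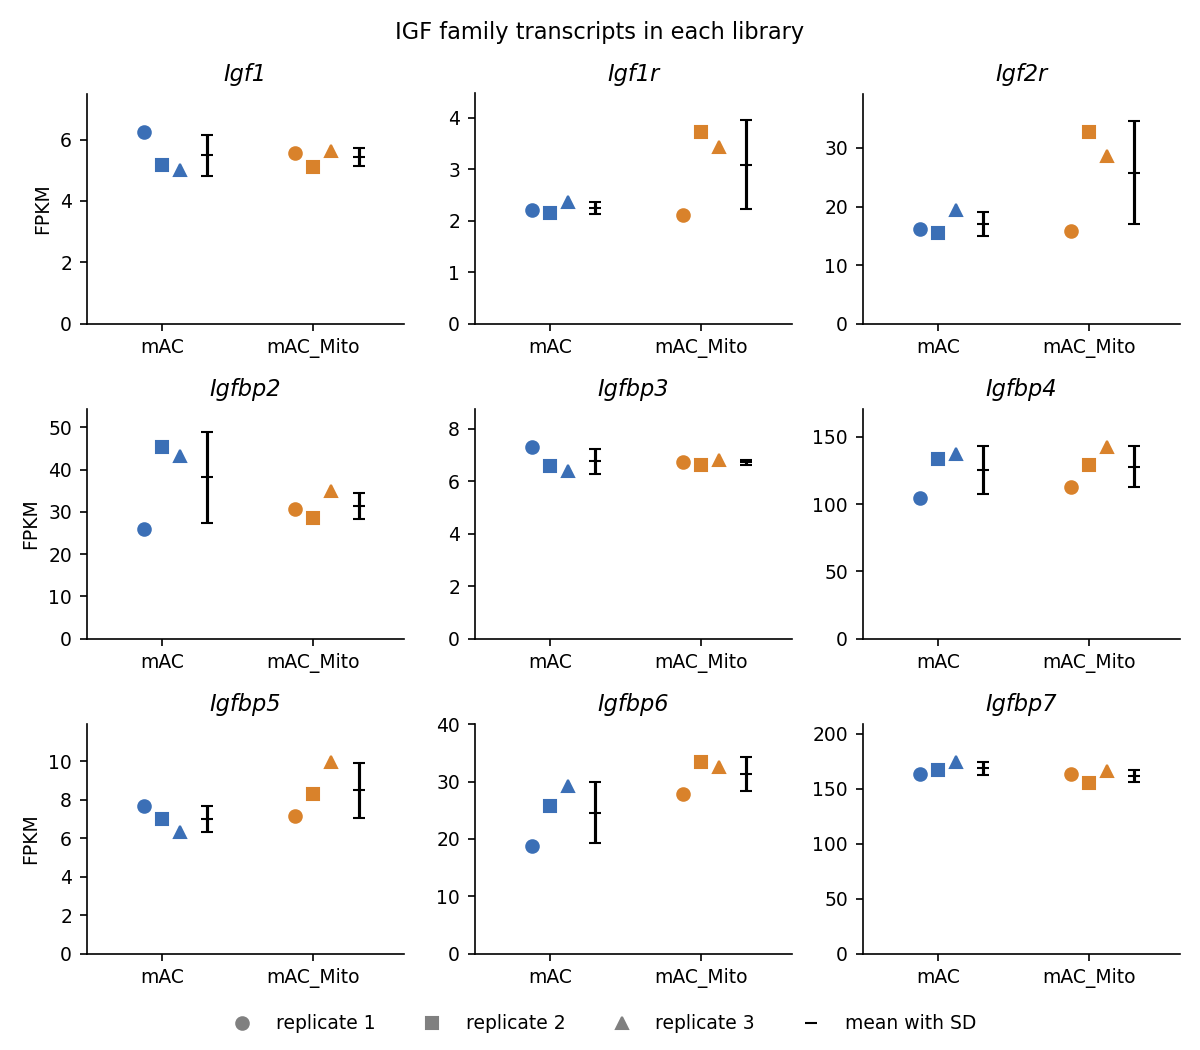
FPKM (vertical axis, from 0) of the 9 IGF family genes in mAC (blue) and mAC_Mito (orange); each symbol is 1 library and black bars give the mean with its SD over 3 libraries. Igf1r and Igf2r stand high in mAC_Mito 2 and 3 only, while Igf1, Igfbp3 and Igfbp7 sit close together in all 6 libraries.

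The groups were compared as mAC_Mito minus mAC, and the labels do not settle which of them was given mitochondria. In the IGF family no gene passed. By edgeR's quasi-likelihood test with Benjamini-Hochberg adjustment over the 17645 genes tested, 0 of 9 members passed an adjusted p of 0.05 (0.99992 for each), where 0.0113% of all genes did. DESeq2 and limma on FPKM also called 0 members. At an unadjusted p under 0.05 there were 3 members, Igf2r, Igf1r and Igfbp6, all higher in mAC_Mito, where 2.1% of all genes were higher at that level, 1.09% were lower and 3.19% passed in either direction. DESeq2 and the fit of length and GC content also gave 3 at that level, the latter with Igfbp2 (lower) in place of Igf1r, and the limma fits on FPKM gave 0. The count by edgeR was 0 without mAC 2, mAC_Mito 2 or mAC_Mito 3, and 4 without mAC 1. The log2 fold changes of the members had a median of 0.01, with 5 above and 4 below 0, beside a median of 0.00 and 50.4% above 0 over all genes tested; the members' median was 0.12 without mAC 1 and -0.03 without mAC_Mito 3.

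**Figure D2:**
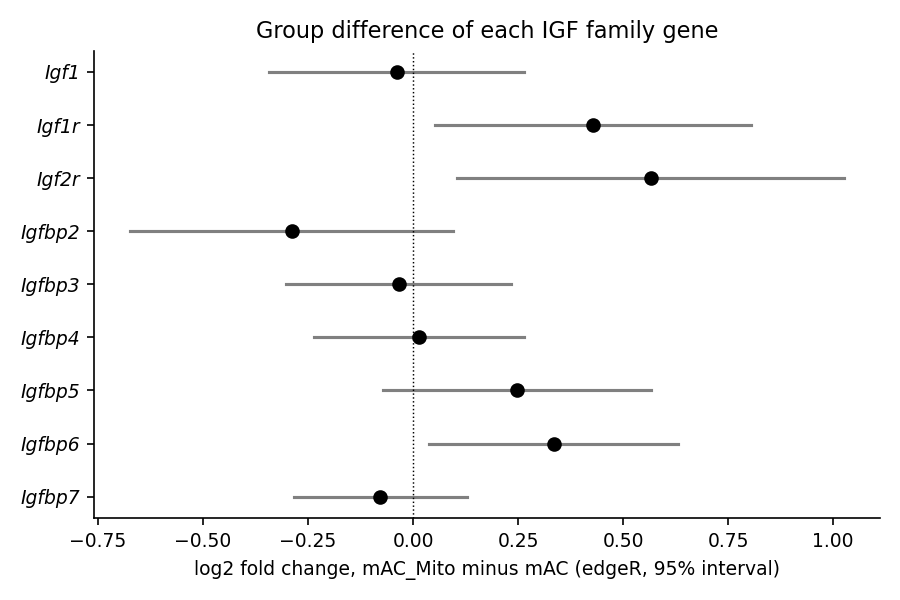
Log2 fold change (horizontal axis, mAC_Mito minus mAC) of each IGF family gene, with points for the edgeR estimate and lines for the 95% interval. The intervals of Igf1r, Igf2r and Igfbp6 lie above 0 before adjustment for multiple tests, and those of the other 6 genes include 0.

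The ligand gene Igf1 (ENSMUSG00000020053, chromosome 10, 87858265 to 87937042, plus strand) was at an even level. It had 6.25, 5.18 and 5.01 FPKM in mAC 1, 2 and 3 and 5.57, 5.10 and 5.64 FPKM in mAC_Mito 1, 2 and 3. mAC 1 was the highest, and the groups overlapped. The difference on the log2 scale was -0.04 (standard error 0.14), with a 95% interval from -0.34 to 0.26. Its sign turned without mAC 1 (0.12) or without mAC_Mito 2 (0.03). The antisense gene Igf1os overlaps Igf1 and had 0 to 6 counts per library. Igf2, the other IGF ligand and a strongly imprinted fetal growth factor, averaged 1272 ± 146 FPKM over mAC libraries and 1209 ± 22.3 over mAC_Mito libraries (SD, n = 3), which was 213 to 242 times the FPKM of Igf1 in the same library.

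Among 6601 genes with a mean of at least 5 FPKM, those with the pattern most like that of Igf1 over the 6 libraries were Tgif1, Stim2 and Sav1. Likeness was the mean absolute difference of log2 CPM (counts scaled to library depth) centred on each gene's own mean, and it was 0.0267, 0.0283 and 0.0328. All of them had their highest level in mAC 1.

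The receptor genes were the members that differed most between libraries. Igf1r (ENSMUSG00000005533, chromosome 7, 67952827 to 68233668, plus strand) was at 2.21, 2.14 and 2.37 FPKM in mAC 1, 2 and 3. Libraries mAC_Mito 1, 2 and 3 had 2.10, 3.72 and 3.43 FPKM. mAC_Mito 2 and 3 stood above the other 4 libraries, and mAC_Mito 1 was the lowest of all on FPKM, so the groups overlapped. Igf1r thus had a log2 fold change of 0.43 (1.35-fold), a standard error of 0.17 and a 95% interval from 0.05 to 0.81.

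Igf2r (ENSMUSG00000023830, chromosome 17, 12682406 to 12769664, minus strand) went the same way on a higher level. It had 16.1, 15.5 and 19.5 FPKM in mAC 1, 2 and 3 and 15.9, 32.7 and 28.6 FPKM in mAC_Mito 1, 2 and 3. Again mAC_Mito 2 and 3 were above every other library and mAC_Mito 1 was within the range of mAC. For Igf2r the log2 fold change came to 0.57 (1.48-fold), standard error 0.21, with a 95% interval from 0.11 to 1.03. Without mAC_Mito 1 the values were 0.61 for Igf1r and 0.79 for Igf2r, and the lowest adjusted p of any member by edgeR's quasi-likelihood test with Benjamini-Hochberg adjustment was 0.2107. Without mAC_Mito 2 they were 0.30 and 0.38. The antisense RNA Airn lies across 28354 bases of Igf2r on the other strand and had 1.09% to 3.35% of the counts of Igf2r. Whether counting used strand is not given in the sources used here. Reads of the overlapping parts then cannot be told apart.

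The receptors kept a narrow range of ratios. Igf2r had 7.26 to 8.80 times the FPKM of Igf1r in the same library. All annotated exons together cover 16.8 kb for Igf1r and 9.31 kb for Igf2r, and the longest annotated transcripts have 11.4 and 8.89 kb. The size of this ratio therefore depends on the gene model. The log2 ratio of Igf1r to Igf2r averaged -2.92 ± 0.103 over mAC libraries and -3.04 ± 0.112 over mAC_Mito libraries (SD, n = 3; two-sided exact permutation p = 0.2, where 3 against 3 libraries cannot go below 0.1).

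The genes nearest to Igf2r in pattern were Dync1h1, the heavy chain of cytoplasmic dynein, the actin crosslinker Flnc and the large extracellular protein Svep1. Their mean absolute differences from Igf2r were 0.0293, 0.0454 and 0.0616 on the centred log2 CPM scale over 6 libraries. All have long transcripts and a high GC content, 14.3 kb with 53.7%, 9.04 kb with 58.4% and 11.6 kb with 52.0%. The longest annotated transcript of Igf2r has 8.89 kb and 51.2% G and C, and that of Igf1r 11.4 kb and 49.4%.

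The median of genes with long, GC-rich transcripts was also highest in libraries mAC_Mito 2 and 3, and any part of this in the receptor values was not tested. For 243 tested genes with a transcript of at least 8 kb and a GC content of at least the median of 49.9%, libraries mAC 1, 2 and 3 had a median centred log2 CPM of 0.00, -0.26 and -0.14. Libraries mAC_Mito 1, 2 and 3 had -0.15, 0.33 and 0.21. For the 580 long genes under that GC content, which include Igf1r, it was 0.07, -0.14 and -0.02 and then -0.09, 0.19 and 0.03, and for shorter genes it lay between 0.00 and 0.02 in every library. In the same library order Igf2r had -0.25, -0.40 and -0.13, then -0.31, 0.62 and 0.46. Igf1r had -0.13, -0.28 and -0.19, then -0.24, 0.47 and 0.37. Of the 243 genes 22.2% had an unadjusted p under 0.05, and their median log2 fold change was 0.27. Of the 580 genes, Igf1r among them, 2.93% were at that level, with a median log2 fold change of 0.07. The share was 2.93% for the shorter genes and 3.19% for all tested genes with an annotated transcript. When transcript length and GC content were fitted in each library, a step chosen after seeing the data, the log2 fold change of Igf2r was 0.35 (interval 0.03 to 0.68) and that of Igf1r 0.205 (-0.02 to 0.43). The fit takes out any library difference that follows length and GC content, whatever its source, so it is no test of a cause.

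**Figure D3:**
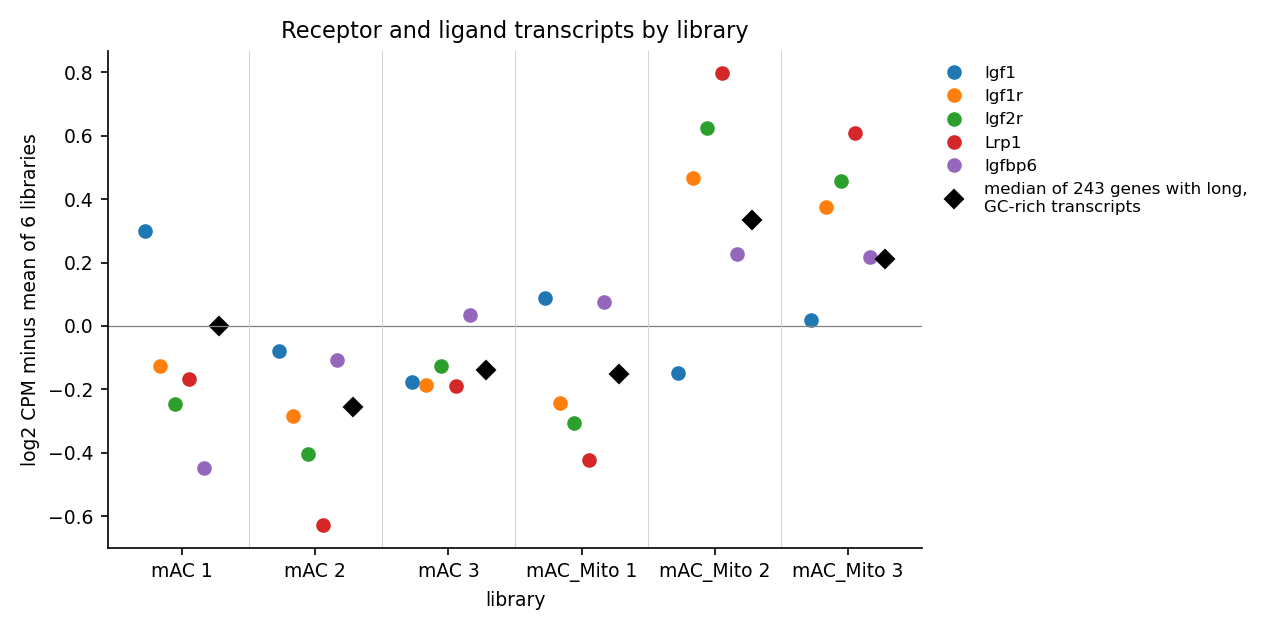
Log2 CPM minus the mean of 6 libraries (vertical axis) in each library (horizontal axis) for Igf1, Igf1r, Igf2r, Lrp1 and Igfbp6; black diamonds give the median of 243 genes with transcripts of at least 8 kb and 49.9% G and C. Igf1r, Igf2r, Lrp1 and the diamonds are above 0 in mAC_Mito 2 and 3 and at or below 0 in the other 4 libraries, and Igf1 is not.

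The binding proteins were dominated by Igfbp7 and Igfbp4, which together made 78.0% to 81.8% of the summed FPKM of the 6 binding protein genes. That sum was 327.7, 385.5 and 396.8 FPKM in the mAC libraries in number order, against 348.6, 361.0 and 392.6 in the mAC_Mito libraries (two-sided exact permutation p = 0.9). It was 52.4 to 79.2 times the FPKM of Igf1. The log2 ratio of the sum to Igf1 averaged 6.08 ± 0.321 over mAC libraries and 6.08 ± 0.096 over mAC_Mito libraries (SD, n = 3; two-sided exact permutation p = 1.0).

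Igfbp7 (ENSMUSG00000036256, chromosome 5, 77349240 to 77408041, minus strand) encodes a matrix protein that binds IGFs weakly. It had 163, 167 and 174 FPKM in mAC 1, 2 and 3 and 164, 155 and 166 FPKM in mAC_Mito 1, 2 and 3. The groups overlapped, with mAC_Mito 2 lowest and mAC 3 highest on FPKM. On log2 CPM mAC 1 was the highest. Its log2 fold change of -0.08 had the narrowest interval of the family, from -0.28 to 0.13. It shares 85 bases at its end with Polr2b on the other strand, which had 47.9% to 53.0% of its counts.

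Igfbp4 (ENSMUSG00000017493, chromosome 11, 99041244 to 99054392, plus strand) encodes a binding protein that restrains IGFs until the protease PAPP-A cuts it. Libraries mAC 1, 2 and 3 had 105, 134 and 137 FPKM, and mAC_Mito 1, 2 and 3 had 112, 129 and 142. In both groups library 1 was the lowest. Its log2 fold change was 0.01, with an interval from -0.23 to 0.26.

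Igfbp6 (ENSMUSG00000023046, chromosome 15, 102144362 to 102149511, plus strand), whose protein prefers IGF2 over IGF1, was the member nearest to a split by group. It was at 18.8, 25.7 and 29.3 FPKM in mAC 1, 2 and 3 and at 27.9, 33.5 and 32.6 FPKM in mAC_Mito 1, 2 and 3. On FPKM the groups overlapped between mAC 3 and mAC_Mito 1, and on TMM-scaled log2 CPM they did not. On that scale Igfbp6 was the 1 member of 9 whose groups were apart, where 8.31% of all genes were apart, 3.93% higher in mAC_Mito and 4.38% lower. Igfbp6 had a log2 fold change of 0.33 (1.26-fold), a standard error of 0.13 and an interval from 0.04 to 0.63. Its transcript is short, at 1.11 kb, and with length and GC content fitted the value was 0.33. Without mAC 1, the lowest library, it was 0.21. As a share of the summed binding protein FPKM Igfbp6 was at 5.74%, 6.66% and 7.39% in mAC and 7.998%, 9.27% and 8.31% in mAC_Mito. The groups did not overlap in this share, and the difference of 1.93 percentage points had a two-sided exact permutation p of 0.1, the smallest possible, and 0.6 after Benjamini-Hochberg adjustment over the 6 binding proteins.

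Igfbp2 and Igfbp5 are neighbours on chromosome 1, in opposite orientation and 5457 bases apart end to end. Igfbp2 (ENSMUSG00000039323, 72824503 to 72852474, plus strand), a binding protein that can also bind integrins, was at 25.9, 45.4 and 43.2 FPKM in mAC 1, 2 and 3. Libraries mAC_Mito 1, 2 and 3 had 30.7, 28.6 and 34.8 FPKM. On FPKM mAC 2 and 3 were the highest of the 6 libraries and mAC 1 the lowest, so the groups overlapped. They also did on log2 CPM, where mAC_Mito 2 was just below mAC 1. Igfbp2 had a log2 fold change of -0.29, with an interval from -0.67 to 0.10, and it was -0.47 without mAC 1 and -0.15 without mAC 2.

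Igfbp5 (ENSMUSG00000026185, 72857932 to 72874884, minus strand), which binds to matrix and mineral, was at 7.68, 6.99 and 6.30 FPKM in mAC 1, 2 and 3. It was at 7.16, 8.30 and 9.96 FPKM in mAC_Mito 1, 2 and 3. mAC_Mito 3 was the highest and the groups overlapped through mAC 1 and mAC_Mito 1. The log2 fold change of 0.25 had an interval from -0.07 to 0.57, so the neighbouring genes had estimates of opposite sign, each with an interval that includes 0. For Igfbp5 the value was 0.13 without mAC_Mito 3, 0.15 without mAC 3, 0.37 without mAC 1 and 0.15 with length and GC content fitted.

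Igfbp3 (ENSMUSG00000020427, chromosome 11, 7206086 to 7213923, minus strand) encodes the main IGF carrier of blood. It was at 7.31, 6.57 and 6.41 FPKM in mAC 1, 2 and 3 and 6.72, 6.63 and 6.81 FPKM in mAC_Mito 1, 2 and 3. All mAC_Mito values lay inside the range of mAC. Its log2 fold change was -0.03, with an interval from -0.30 to 0.23.

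**Figure D4:**
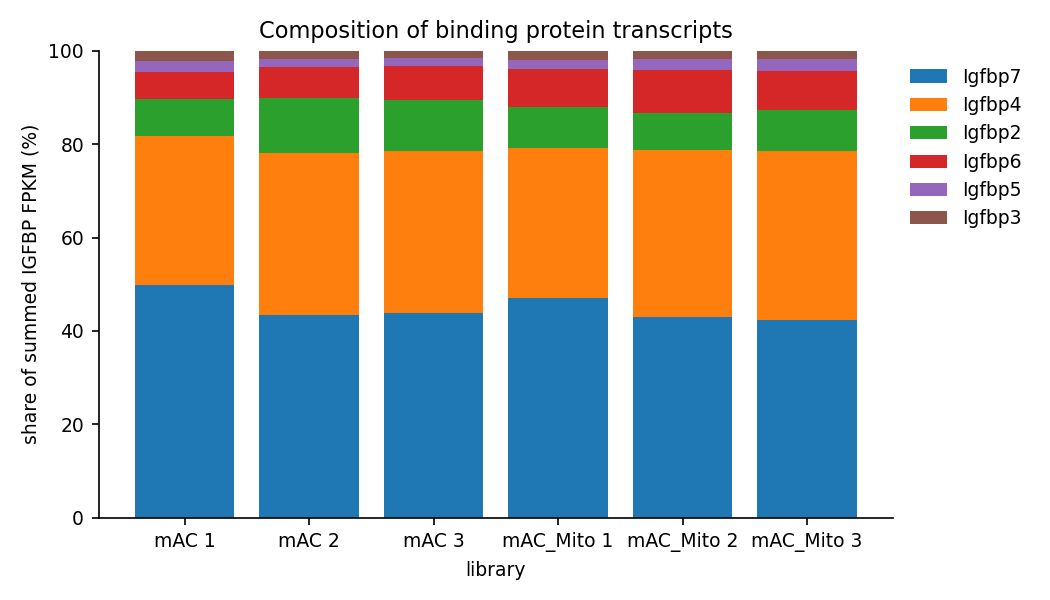
Share of the summed FPKM of 6 binding protein genes (vertical axis, %) in each library, as stacked bars. Igfbp7 and Igfbp4 fill 78.0% to 81.8% of every bar, and the Igfbp6 part is 5.74% to 7.39% in mAC and 7.998% to 9.27% in mAC_Mito.

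The other genes of the pathway were read from 7 lists by role. Of 91 genes listed 85 were in the table and 84 were tested. None passed an adjusted p of 0.05 by edgeR, DESeq2 or limma, where edgeR passed 0.0113% of all genes. At an unadjusted p under 0.05 there were 4 higher and 1 lower (5.95%, beside 3.19% of all genes). The median log2 fold change was 0.03, with 52 above and 32 below 0 (61.9% above, beside 50.4% of all genes). On TMM-scaled log2 CPM the groups were apart for 3 of the 84 genes higher in mAC_Mito and for 3 lower. Of all genes 3.93% and 4.38% were apart in these directions. The count of 5 was 2 without mAC 2, mAC_Mito 2 or mAC_Mito 3, and 12 without mAC_Mito 1.

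Among 4 tested ligands and partners the lowest unadjusted p was that of Lrp1, the endocytic receptor that also binds IGFBP3. Lrp1 had 16.9, 13.2 and 18.6 FPKM in mAC 1, 2 and 3 and 14.6, 36.8 and 31.7 FPKM in mAC_Mito 1, 2 and 3. This is the split by library seen in Igf1r and Igf2r. The longest annotated transcript of Lrp1 has 14.9 kb and 57.9% G and C. Lrp1 is thus among the 243 genes with long, GC-rich transcripts, whose median was also highest in mAC_Mito 2 and 3. The log2 fold change of Lrp1 was 0.73 (interval 0.13 to 1.33), and 0.33 (-0.03 to 0.69) with length and GC content fitted.

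Of 12 IGFBP proteases and their inhibitors 5 were above and 7 below 0, with a median log2 fold change of -0.01. The lysosomal protease Ctsd was the most abundant of the list, at 777 ± 127 and 782 ± 34.5 FPKM. Pappa, which encodes the IGFBP4 protease PAPP-A, averaged 1.42 ± 0.29 FPKM over mAC libraries and 1.74 ± 0.371 over mAC_Mito libraries (SD, n = 3), with an interval of its log2 fold change from -0.17 to 0.69. Pappa is named here after its values were seen.

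Of 13 tested genes for the insulin receptor, substrates and adaptors 1 was at an unadjusted p under 0.05. Irs2, a docking protein below IGF1R and the insulin receptor, was at 1.32, 1.33 and 1.55 FPKM in mAC 1, 2 and 3. It was at 1.56, 2.11 and 2.22 FPKM in mAC_Mito 1, 2 and 3. The groups did not overlap, though mAC 3 and mAC_Mito 1 nearly touched on FPKM. On centred log2 CPM these libraries were at -0.145 and -0.02, and 8.31% of all genes were apart on log2 CPM. Irs2 had a log2 fold change of 0.46 (interval 0.15 to 0.78), and 0.28 with length and GC content fitted. The scaffold Rack1 was the most abundant gene of the list, at 209 ± 29.5 and 207 ± 14.1 FPKM.

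In the list of PI3K, AKT, mTOR and FOXO, 22 of 29 genes were above 0 and 7 below (75.9% above, beside 50.4% of all genes). At an unadjusted p under 0.05 there were 2, both higher (6.9%). Of all genes 2.1% were higher at that level, and 3.19% passed in either direction. The kinase Mtor averaged 3.37 ± 0.42 FPKM over mAC libraries and 4.23 ± 0.808 over mAC_Mito libraries, with a log2 fold change of 0.30 that was 0.08 with length and GC content fitted. Gsk3b, a kinase that AKT inhibits, was at 5.88 ± 0.479 and 7.19 ± 0.757 FPKM (log2 fold change 0.26, and 0.17 with that fit). With that fit the intervals ran from -0.13 to 0.30 for Mtor and from -0.003 to 0.35 for Gsk3b. Akt1, the most abundant of the list, was at 76.6 ± 7.02 and 76.7 ± 2.99 FPKM.

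No gene of the lists of RAS and MAPK (16 tested), the growth hormone axis (7) and the IGF2BP RNA-binding proteins (3) was at an unadjusted p under 0.05. Their lowest unadjusted edgeR p-values were 0.0609 for the feedback inhibitor Spry4, 0.188 for Stat5b and 0.181 for Igf2bp3. Their most abundant genes were Mapk3 at 58.4 ± 9.11 and 54.9 ± 7.99 FPKM, Socs3 at 17.6 ± 2.24 and 17.0 ± 2.05, and Igf2bp2 at 9.51 ± 1.92 and 9.80 ± 0.338 in mAC and mAC_Mito (SD, n = 3).

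All 10 chondrocyte markers were at a mean of at least 1 FPKM, and their summed level was 1721 to 2013 FPKM in mAC and 1580 to 2516 in mAC_Mito. The sum of 8 fibroblast and synovial markers was 539 to 674 FPKM in mAC and 550 to 916 in mAC_Mito, with the highest sums of both lists in mAC_Mito 2 and 3, where Igf1r and Igf2r were also high. Col2a1 (951 to 1662 FPKM) and Col1a1 (271 to 634 FPKM) made up most or much of these sums, and not all markers had that order. Hapln1 and Snorc were lowest in mAC_Mito 2 and 3, Thy1 and Prg4 were highest in mAC 1, and Dcn was lowest in mAC_Mito 2. Markers of 10 for macrophages and leukocytes, cells that also make IGF1, summed to 67.97 to 82.9 FPKM in mAC and 74.5 to 121 in mAC_Mito. Most of that was Lyz2 (49.0 to 96.4 FPKM), and 6 of the 10 were at a mean of at least 1 FPKM. Cd68 was at 5.77 to 9.59 and Tyrobp at 2.40 to 5.16 FPKM. Ptprc, the common leukocyte antigen, was the lowest, at 0.0231 to 0.0915 FPKM. Adgre1 had groups apart on log2 CPM, higher in mAC_Mito (log2 fold change 0.58, interval -0.05 to 1.21). The other markers of this list overlapped on that scale. Endothelial markers summed to 1.38 to 1.62 FPKM, and the 4 osteocyte markers in the table to 0.0685 to 0.168 FPKM. The 4 osteoblast markers summed to 17.3 to 18.1 FPKM in mAC libraries and to 18.6 to 19.4 in mAC_Mito libraries, the one list of the 8 whose sums did not overlap. Of single genes, 8.31% of all tested had groups apart on log2 CPM. Each of the 4 markers (Bglap, Ibsp, Sp7 and Alpl) overlapped between the groups. The mean of Bglap was lower in mAC_Mito, at 0.365 FPKM against 0.391 in mAC. Adipocyte markers reached 45.8 to 78.2 FPKM in mAC and 63.7 to 80.8 in mAC_Mito, and skeletal muscle markers 16.0 to 24.1 and 21.8 to 26.9. The part of these cells in the levels of the IGF genes was not tested, and in bulk RNA fewer cells of a type and less RNA per cell cannot be told apart.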

How the data were processed

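Poly(A) RNA of 6 libraries was measured by paired-end sequencing, per the labels' protocols, which speak of an adipose type although the source is chondrocytes. The authors deposited raw read counts per gene and FPKM for each library, per the file headers. Build mm8 and the tools Bowtie 0.12.2, StringTie 1.3.0 and HISAT2 2.0 are listed, with no roles, per the submitters' processing notes. The members' coordinates equal GENCODE M21 (GRCm38) for 9 of 9, and positions are given on that build. The counting rule is not given in the sources used here.

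Counts were tested with edgeR 4.0.16 in R 4.3.3 (filterByExpr with minimum count 10 and minimum total 15, TMM scaling, quasi-likelihood test, two-sided, Benjamini-Hochberg adjustment over 17645 genes), after a check on simulated counts. In that check 55.6% of 99 genes given a log2 fold change of 1 in either direction passed an adjusted p of 0.05. No change under 1 was simulated. Intervals of log2 fold changes are 95% and follow from the F statistic. Log2 CPM used a prior count of 2. Shares and ratios were compared by two-sided exact permutation tests over libraries. Alternatives used DESeq2 1.42.0 and limma 3.58.1 on log2(FPKM + 1) and log2(FPKM + 0.1). The length and GC fit is a loess (span 0.3) of centred log2 CPM per library on the longest annotated transcript, used as offsets. Named genes are all members, in each list the most abundant gene and that with the lowest p (all at an unadjusted p under 0.05 are also given, except 1 gene that is not reported here), and the 3 genes nearest in pattern to Igf1 and to the most variable member. Members and lists were chosen with earlier results of these data known. Promoter windows come from RefSeq GRCm38.p6.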

Additional observations from a re-analysis of the deposited data

How the results depend on the processing

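No member and no pathway gene passed an adjusted p of 0.05 under any alternative run. The count of members at an unadjusted p under 0.05, 3 in the main test, was 0 with limma on log2(FPKM + 1), on log2(FPKM + 0.1) or on the former after a filter (1 FPKM or more in 3 or more libraries), and 0 to 4 when 1 library was left out. The pathway count of 5 was 3, 2 and 3 in those limma fits, 2 with length and GC content fitted, and 2 to 12 without 1 library. Over all genes, 2 passed in the main test, 4 with DESeq2, 0 with no filter on low counts or with limma on log2(FPKM + 1), 1 with limma on log2(FPKM + 0.1) or with length and GC content fitted, and 0 to 4 without 1 library. The members' median log2 fold change was -0.033 to 0.12 without 1 library.

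Some signs turned. Without 1 library Igf1 ranged over -0.132 to 0.12, Igfbp3 over -0.104 to 0.0768, Igfbp4 over -0.0609 to 0.0643, Igf2 over -0.206 to 0.0431, and the shares of Igfbp3 and Igfbp7 over -0.136 to 0.173 and -3.11 to 0.411 points. Igf1 was at 0.12 without mAC 1, 0.0266 without mAC_Mito 2 and 0.00886 with length and GC content fitted. Igfbp3 was at 0.0768 and Igf2 at 0.0431 without mAC 1. Igfbp4 was at -0.0593 without mAC 1, -0.0609 without mAC_Mito 3 and -0.0635 with length and GC content fitted. In shares of summed binding protein FPKM, Igfbp3 differed by 0.173 points without mAC 1 and 0.032 without mAC_Mito 3, and Igfbp7, at -1.66 with all libraries, by 0.411 without mAC 1. The summed FPKM differed by -23.7 to 10.8 without 1 library (5.19 without mAC 2, 10.8 without mAC 3, 6.82 without mAC_Mito 1, 0.629 without mAC_Mito 2). The log2 ratio of the sum to Igf1 differed by -0.184 to 0.114 (0.0685 without mAC 2, 0.114 without mAC 3, 0.0546 without mAC_Mito 1), and by 4.08e-05 on TMM-scaled CPM per kilobase. The cause was not tested.

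No label says whether same-numbered libraries were paired. Deviations from the group means correlated at 0.124, -0.06 and -0.012 over genes for numbers 1, 2 and 3. For libraries of unlike number the values were -0.14 to 0.154. The deviations within a group depend on each other, so these values cannot settle whether libraries were paired. With the replicate number as a block 0 members and 0 pathway genes passed, 3 and 5 were at an unadjusted p under 0.05, 2 of all genes passed, and the members' median was 0.01. With 3 libraries a group the exact permutation tests cannot reach 0.05.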
